A study of Mus musculus with 34 samples.

Results

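Slc17a7, Slc17a6, Camk2a, Neurod2, Neurod6, Tbr1, Emx1, Nrgn and Cux2 are 9 transcripts of excitatory, glutamate-releasing neurons, which are not the cells that the study labelled. They were taken by gene symbol, not by a threshold on measured values, from 54540 symbols that occur in at least 1 of 5 count tables. A set of 11429 symbols occurs in all tables, and it holds 8 of the 9 members, since Emx1 is not listed in the table of batch 2. Every member that a table listed passed the filter on low counts there. The members were measured in 34 RiboTag libraries from C57/BL6 mice at postnatal day 60, in which a Cre driver switches on a hemagglutinin tag on the ribosomal protein Rpl22, and tagged ribosomes with their mRNA are pulled down with an antibody. Cre came from the Pvalb gene (PV:Cre/Ribotag, parvalbumin interneurons) or from the Sst gene (Sst:Cre/Ribotag, somatostatin interneurons), so every animal carried the tag allele and 1 of these drivers, and libraries are called PV or SST by the driver.

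In batch 1, PV libraries came from mice given pentylenetetrazol (PTZ, a blocker of GABA receptors that excites neurons broadly; n = 4) or saline (n = 3). In batch 2, SST libraries came from mice given PTZ (n = 3) or saline (n = 4), beside PV libraries from mice given saline (n = 2). In batch 3, PV libraries came from mice put through contextual fear conditioning (CFC, a context paired with foot shocks; n = 3), from home cage mice that also carried floxed Nr4a1 alleles (PV:Cre/Nr4a1-f/f/Ribotag; n = 3) and from home cage mice with intact Nr4a1 (n = 3). In batch 4, SST libraries came from CFC mice (n = 3) and home cage mice (n = 3), and in batch 5 from home cage mice of the genotype Sst:Cre/Nr4a1-f/f/Ribotag (n = 3). The sources used here state neither the dose and timing of PTZ nor whether animals were pooled. The tissue is labelled cortex and hippocampus, while the extraction protocol names cortices only. Libraries of RNA from before the pull-down were not analysed here, so a transcript that the tagged cells make themselves cannot be told apart from one carried over from their neighbours.

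Excitatory neurons load glutamate into synaptic vesicles with the transporters VGLUT1 (Slc17a7, the main one in cortex and hippocampus) and VGLUT2 (Slc17a6, the main one in thalamus). Their postsynaptic side is rich in the calcium/calmodulin-dependent kinase subunit Camk2a and in neurogranin (Nrgn), which binds calmodulin. Neurod2 and Neurod6 are helix-loop-helix factors of cortical pyramidal neurons, Emx1 and Tbr1 are transcription factors of the dorsal forebrain and of deep cortical layers, and Cux2 is a homeodomain factor of upper-layer neurons that interneurons are also known to express.

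Total counts per library ran from 4933110 to 27282912, and both PV saline libraries of batch 2 were shallow, at 6161764 and 4933110. The labels held for Sst, at 1746 to 6084 CPM (read counts scaled to a common library total) in SST libraries and 30.2 to 464.1 CPM in PV libraries. Pvalb was low in PV libraries of batch 1, at 15.9 to 128 CPM, against 243.1 and 361.9 CPM in PV libraries of batch 2, while SST libraries of batches 4 and 5 held 87.3 to 477.9 CPM. Nr4a1 was not lower in PV Nr4a1-f/f libraries (6.68, 16.5 and 7.65 CPM) than in PV home cage libraries (5.07, 7.43 and 11.7 CPM), nor did it pass the test in SST Nr4a1-f/f libraries (15.0, 11.4 and 17.7 CPM) against SST home cage libraries (23.5, 15.3 and 13.8 CPM). Counts over a whole gene include exons outside a floxed part, and the sources used here do not state which exons are floxed. Replicate 1 of PV saline in batch 1 stood apart from the other two libraries of its group, with Nr4a1 at 37.3 CPM against 4.64 and 8.33 CPM. Its summed astrocyte markers were also higher, at 4988 CPM against 1019 and 1128 CPM. Results of PTZ in PV libraries, and the correlations over all libraries, are given with and without it.

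In the mouse genome (GRCm38, the build also called mm10), the members are spread over several chromosomes. Slc17a7 (chr7:45163949-45176142) and Slc17a6 (chr7:51622006-51671119) share chromosome 7, on the plus strand. Nrgn (chr9:37544492-37552904) and Neurod2 (chr11:98325415-98329648) lie on the minus strand. Tbr1 occupies chr2:61802930-61814114 and Emx1 chr6:85187438-85204462 on the plus strand, while Neurod6 (chr6:55677822-55681263) and Cux2 (chr5:121856366-122050102) are on the minus strand. An annotated antisense gene, Gm15637, covers 163 exon bases of Cux2, and no strand setting of the counting is stated, so reads of the pair could not be separated there.

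Start sites of 8 members were matched in RefSeq (GRCm38.p6), with 10 start sites in all. Because Neurod2 and Neurod6 belong to a family of factors that bind E-boxes, the bases just upstream were searched on both strands. The letters CAGATG, which read as CATCTG on the opposite strand, and the palindrome with the letters CAGCTG were looked for. Either motif was found at 4 of the 10 start sites, while 25.5% of 32851 mouse windows of 250 bases held one. The sequences of 3 members whose levels differed in the comparisons are shown, 5′ to 3′ on the strand of the gene and without annotated exon bases, with a motif in capitals. They cover chr7:45163671-45163920 (plus strand, no match), chr11:98329649-98329895 (minus strand, 1 match) and chr9:37552905-37552995 (minus strand, 1 match). A match is a description of letters and not a bound site.
Slc17a7: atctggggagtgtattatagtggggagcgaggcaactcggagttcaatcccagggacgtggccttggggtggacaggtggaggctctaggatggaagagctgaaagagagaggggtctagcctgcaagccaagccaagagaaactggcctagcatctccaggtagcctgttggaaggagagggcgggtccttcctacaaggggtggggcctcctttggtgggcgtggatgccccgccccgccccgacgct
Neurod2: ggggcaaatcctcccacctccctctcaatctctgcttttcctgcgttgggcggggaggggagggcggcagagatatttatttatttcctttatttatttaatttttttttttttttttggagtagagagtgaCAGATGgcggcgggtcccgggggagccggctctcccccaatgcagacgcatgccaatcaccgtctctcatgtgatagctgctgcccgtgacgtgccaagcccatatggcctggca
Nrgn: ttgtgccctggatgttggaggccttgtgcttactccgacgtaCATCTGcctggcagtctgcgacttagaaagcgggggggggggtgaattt

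Among the glutamate transporters, Slc17a7 was far more abundant than Slc17a6 in every library. Group means of Slc17a7 ran from 55.1 ± 8.82 CPM in SST saline libraries to 135 ± 21.9 CPM in SST home cage libraries (SD, n = 4 and n = 3). Ordered by their means, no group had all of its Slc17a7 values above those of the next group. Slc17a6 group means lay between 1.78 CPM in PV CFC libraries and 9.19 CPM in PV PTZ libraries. Per kilobase of exon, the ratio of Slc17a7 to Slc17a6 had a median of 20.3 and a range of 6.63 to 65.0 over 34 libraries.

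Of the postsynaptic members, Camk2a was the most abundant in each table. Its group means were 1721 ± 245 CPM in PV PTZ and 1462 ± 730 CPM in PV saline libraries of batch 1, and 1400 ± 187 CPM in SST PTZ, 1226 ± 203 CPM in SST saline and 1301 ± 91.5 CPM in PV saline libraries of batch 2 (SD). They were 258.8 ± 33.0 CPM in PV CFC, 244.6 ± 10.9 CPM in PV Nr4a1-f/f and 228.6 ± 14.3 CPM in PV home cage libraries of batch 3. In SST libraries of batches 4 and 5 they were 401.8 ± 53.7 CPM after CFC, 205.3 ± 16.4 CPM in Nr4a1-f/f mice and 495.6 ± 61.6 CPM in the home cage. The order of Camk2a levels had a gap between neighbours at 2 places: between SST saline and SST home cage libraries, and between SST CFC and PV CFC libraries. Both gaps lie between tables that were counted and scaled separately. Libraries of both drivers stood on each side of the first gap, where batch and treatment cannot be told apart. Between the SST CFC and PV CFC libraries at the second gap, driver and batch cannot be told apart. The SST Nr4a1-f/f libraries of batch 5 (205.3 CPM) also lay below the second gap, so libraries of both drivers stood on each side of it.

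Nrgn did not share this order. It was highest in PV home cage (120.2 ± 56.5 CPM), SST home cage (119 ± 17.0 CPM) and SST CFC libraries (113.8 ± 13.1 CPM), and lowest in SST PTZ (12.1 ± 2.98 CPM) and SST saline libraries (11.7 ± 1.83 CPM, SD). Per kilobase of exon, the batch medians of Nrgn were 35.8, 8.83, 59.8, 79.9 and 31.1 CPM for batches 1 to 5. Those of Camk2a were 235.4, 172.9, 32.3, 59.5 and 26.4 CPM per kilobase. Camk2a thus led per unit of length in batches 1 and 2, and Nrgn in batches 3 to 5.

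Apart from Cux2, the transcription factors were scarce in batches 3 to 5. Of these, only Tbr1 had all values of batches 3 to 5 below all values of batches 1 and 2. Values of Neurod2, Neurod6 and Emx1 overlapped between the earlier and the later batches. Cux2 varied least in proportion to its level among the members listed in every table, with group means of 58.5 to 81.5 CPM. Tbr1 reached 94.2, 96.5, 51.6 and 47.2 CPM in PV PTZ libraries, and between 1.96 and 6.43 CPM in all libraries of batches 3 to 5. Neurod6 ran from 3.05 CPM in a PV CFC library to 36.3 CPM in a PV saline library of batch 1, and Neurod2 from 3.24 CPM in a PV CFC library to 24.2 CPM in a PV PTZ library. Emx1 rested on 5 to 146 counts per library.

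**Figure D1:**
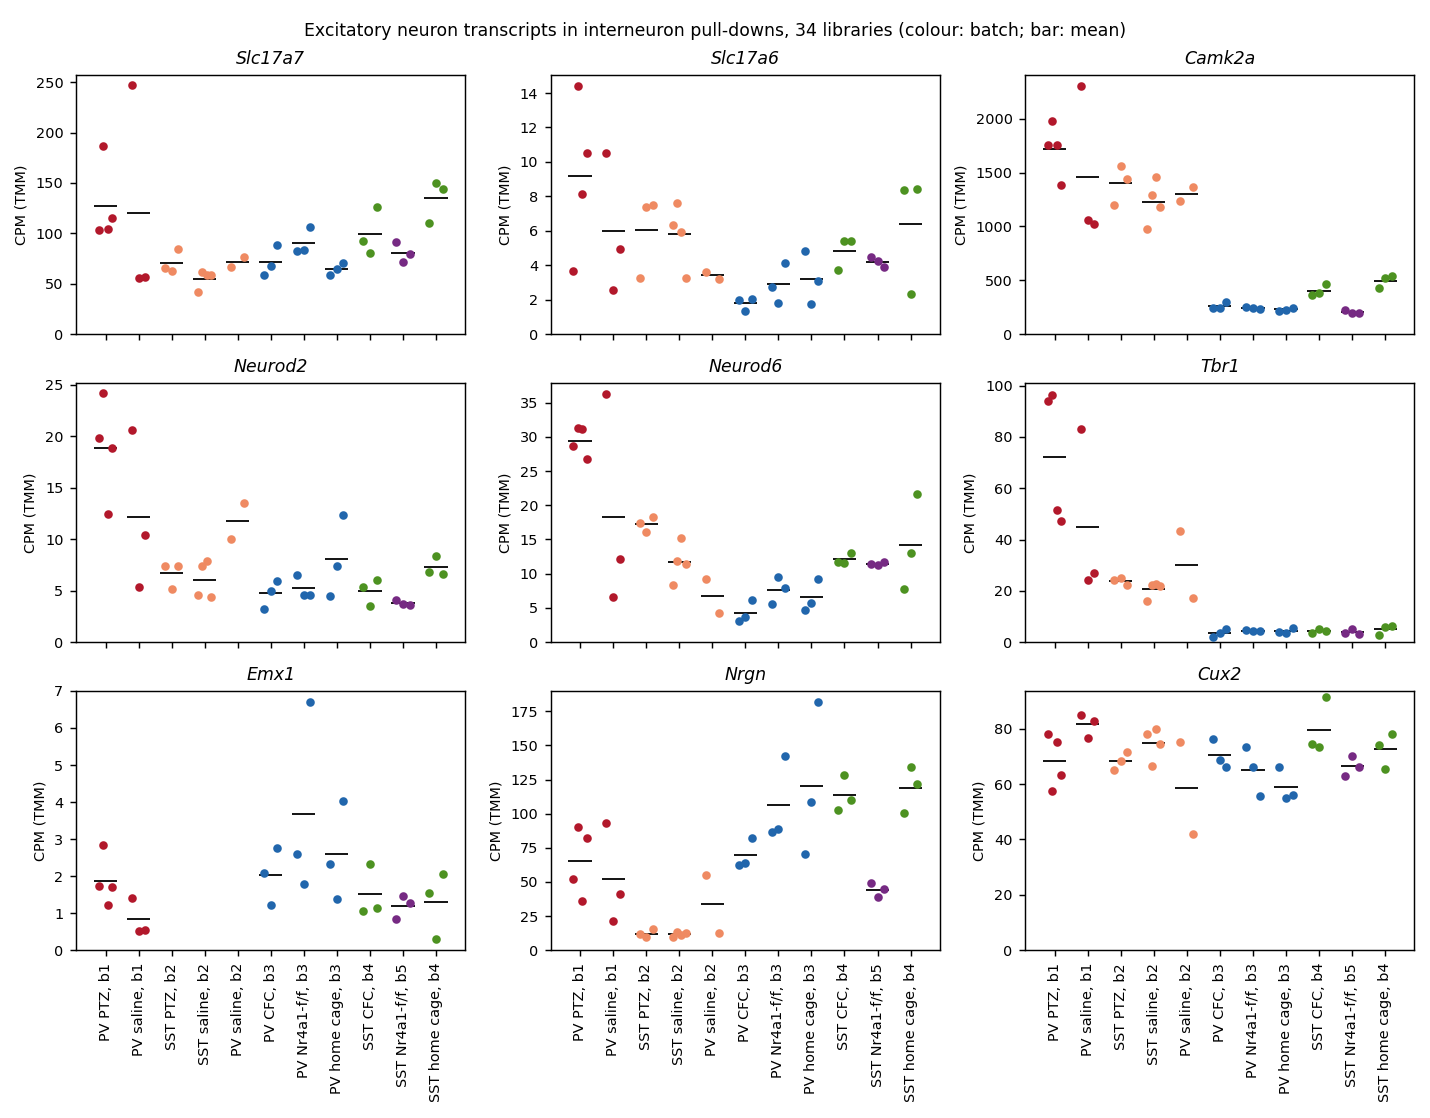
Level of each member in CPM (vertical axes, one panel per gene) in every library, with groups along the horizontal axis, b1 to b5 for the batch, points coloured by batch and bars at group means. Camk2a lies at or above 975.5 CPM in batches 1 and 2 and at or below 538.4 CPM in batches 3 to 5, while Cux2 stays between 41.9 and 91.3 CPM throughout, and Emx1 has no values in batch 2.

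Set against the transcripts of the labelled cells, the summed CPM of the 8 members listed in all tables equalled 38.8% to 123.3% of the summed CPM of Gad1, Gad2 and Slc32a1, which make and load GABA, in PV PTZ libraries. This share was 20.0% to 84.2% in PV saline libraries of batch 1, where replicate 1 held the highest value. It was 24.6% to 30.4% in SST PTZ, 23.2% to 35.2% in SST saline and 41.8% to 49.1% in PV saline libraries of batch 2. Shares in batch 3 were 9.22% to 13.3% in PV CFC, 11.4% to 14.7% in PV Nr4a1-f/f and 10.5% to 22.0% in PV home cage libraries. SST libraries held 20.9% to 28.2% after CFC, 11.6% to 14.9% in Nr4a1-f/f mice and 21.3% to 35.7% in the home cage. The SST Nr4a1-f/f and SST home cage libraries did not overlap in this share. Genotype and batch coincide between these groups and cannot be told apart. These bulk values also cannot tell apart the number of excitatory cells, RNA per such cell, carry-over and transcripts that the tagged cells make.

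Camk2a made up 79.2% to 89.0% of the members' summed CPM in batches 1 and 2, and 41.7% to 58.2% in batches 3 to 5. The same break appeared in the ratio of Camk2a to Camk2b, the subunit of the same kinase that interneurons are also known to express. Per kilobase of exon this ratio was 2.14 to 4.63 in batches 1 and 2 and 0.358 to 1.03 in batches 3 to 5. Within the later tables it was 0.358 to 0.431 in SST Nr4a1-f/f libraries and 0.845 to 1.03 in SST home cage libraries, with no overlap.

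**Figure D2:**
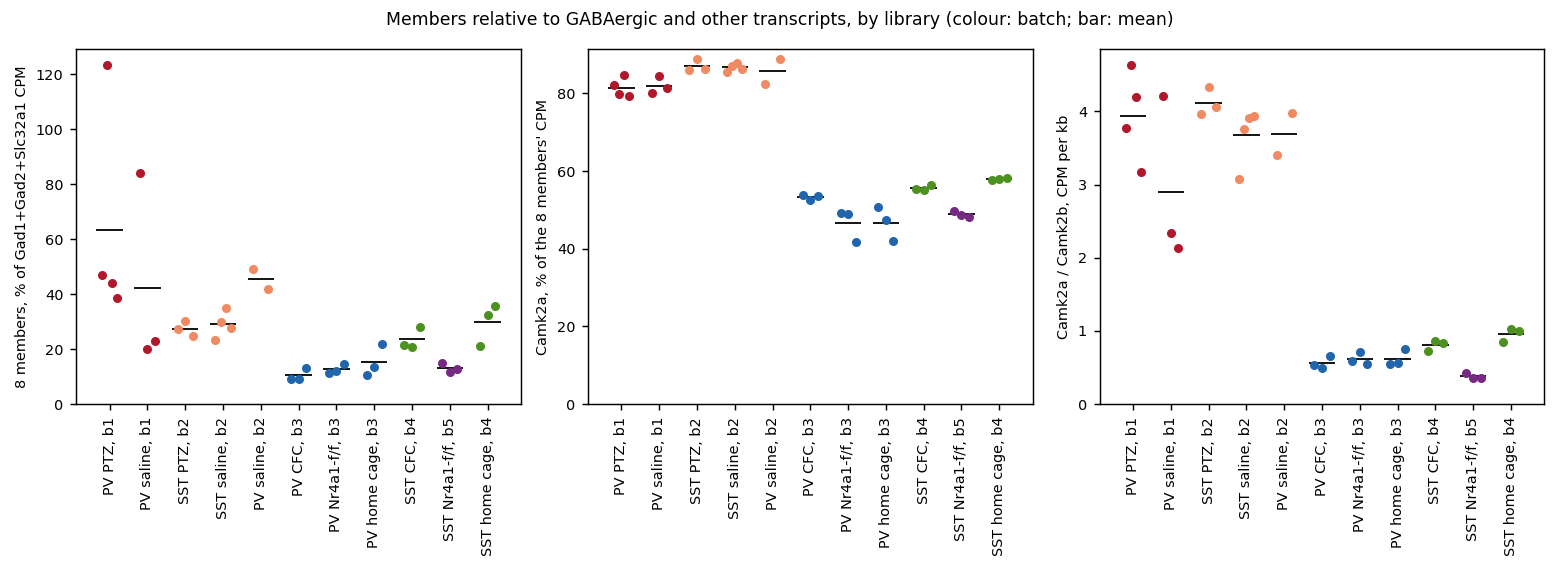
Per-library ratios by group: summed CPM of 8 members as a percentage of summed Gad1, Gad2 and Slc32a1 CPM, Camk2a as a percentage of the members' summed CPM, and Camk2a over Camk2b in CPM per kilobase of exon. The first ratio reaches 123.3% in a PV PTZ library and stays at or below 22.0% in batch 3, and the other ratios are lower in batches 3 to 5 than in batches 1 and 2.

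The comparison with the most called members was that between SST Nr4a1-f/f home cage libraries of batch 5 and SST home cage libraries of batch 4. Camk2a, Nrgn and Slc17a7 were lower in Nr4a1-f/f libraries, and the other 6 members also had negative fold changes without passing the test. Genotype and batch coincide here and cannot be told apart. With the libraries of both batches scaled together, Camk2a had 212.2, 192.6 and 195.8 CPM in Nr4a1-f/f libraries, against 432.1, 524.4 and 543.0 CPM in home cage libraries. Every Nr4a1-f/f value lay below every home cage value. The log2 fold change of Camk2a was -1.32 ± 0.11 (SE) with an adjusted p of 0.000329 (edgeR quasi-likelihood test over all genes, Benjamini-Hochberg).

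Nrgn, the calmodulin-binding partner on the postsynaptic side, had 46.5, 38.6 and 44.8 CPM in Nr4a1-f/f libraries, against 102.5, 134.7 and 122.8 CPM in home cage libraries. These groups did not overlap either, and the log2 fold change was -1.47 ± 0.13 (SE, adjusted p = 0.000371). The vesicular transporter Slc17a7 had 86.3, 70.7 and 78.6 CPM in Nr4a1-f/f libraries, against 111.8, 150.7 and 145.7 CPM in home cage libraries. Its groups were separate as well, and Slc17a7 differed by -0.79 ± 0.17 on the log2 scale (SE, adjusted p = 0.018). This call was lost without SST home cage replicate 2 (adjusted p = 0.0636) or 3 (0.0564), and without Nr4a1-f/f replicate 2 (0.0938) or 3 (0.0758), within a range of 0.00012 to 0.0938 over 12 alternatives, whereas Camk2a and Nrgn passed in all of theirs. Neurod2 had 3.83, 3.70 and 3.58 CPM in Nr4a1-f/f libraries, against 6.90, 8.39 and 6.64 CPM in home cage libraries. All Nr4a1-f/f values were lower, but the log2 fold change of -0.98 ± 0.32 (SE) did not pass (adjusted p = 0.0926).

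Thus 3 of 9 members were called lower in SST Nr4a1-f/f libraries, where 4.59% of 15453 genes were called lower and 8.1% in either direction. Groups did not overlap for 4 of 9 members, all lower, against 14.9% of all genes. The median log2 fold change of the members was -0.65, against 0.02 over all genes tested. Tbr1 (-0.40 ± 0.39), Neurod6 (-0.35 ± 0.32), Slc17a6 (-0.66 ± 0.46), Cux2 (-0.17 ± 0.12) and Emx1 (-0.17 ± 0.76, all SE) had small or imprecise values. Among 24 other glutamatergic neuron genes, 17 had negative values and 2 were called lower, with a median of -0.31. These were Ptk2b, a calcium-dependent tyrosine kinase, and Baiap2, an adaptor of the postsynaptic density. Ptk2b had 104.5, 93.3 and 107.5 CPM in Nr4a1-f/f libraries and 132, 157.4 and 167.7 CPM in home cage libraries (log2 fold change -0.63 ± 0.10 SE, adjusted p = 0.00571). Baiap2 had 74.0, 58.7 and 64.5 CPM in Nr4a1-f/f libraries and 108.2, 101.9 and 102.5 CPM in home cage libraries (-0.72 ± 0.12 SE, adjusted p = 0.00488). Epha4 (-0.67 ± 0.19, adjusted p = 0.0627) and Arpp21 (-0.39 ± 0.11, adjusted p = 0.0644) came next. None of the 8 tested relatives of the members (0) passed, Gap43 coming nearest at -0.26 ± 0.08 (SE, adjusted p = 0.0573).

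Some lists of other transcripts moved with this result, and others did not. Sst itself had 3236, 2987 and 3429 CPM in Nr4a1-f/f libraries and 5882, 5512 and 5854 CPM in home cage libraries (log2 fold change -0.89 ± 0.07 SE, adjusted p = 0.000307). The other SST markers did not follow it, the list of 6 having 3 positive and 3 negative values (median 0.04, 1 called). GABAergic interneuron markers were positive for 9 of 15 (median 0.07, 1 called lower). All 10 astrocyte markers had negative values (median -0.73, 1 called), and their summed level was 365.7 to 417.8 CPM in Nr4a1-f/f libraries and 479.7 to 674.8 CPM in home cage libraries. Of 10 oligodendrocyte lineage markers 9 were negative (median -0.71, 4 called), with sums of 727.5 to 834.1 CPM in Nr4a1-f/f libraries and 1051 to 1506 CPM in home cage libraries. All 9 tested microglia markers were negative (median -1.11, 1 called), with sums of 21.7 to 31.5 CPM in Nr4a1-f/f libraries and 47.4 to 65.2 CPM in home cage libraries. Vascular and mural markers were positive for 6 of 10 (median 0.33, 0 called). Their sums were 38.7 to 1105 CPM in Nr4a1-f/f libraries and 111.9 to 544.2 CPM in home cage libraries. Thalamic relay neuron markers were positive for 3 of 4 (median 0.57, 1 called lower). Striatal projection neuron markers were positive for 3 of 6 (median -0.36, 2 called lower). The part of these cells in the members' differences was not tested.

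In PV Nr4a1-f/f libraries, which share batch 3 with their PV home cage controls, none of the 9 members was called (0), where 0.139% of 15150 genes were. Slc17a7 had 82.7, 83.02 and 106 CPM in PV Nr4a1-f/f libraries, against 58.3, 64.7 and 70.1 CPM in PV home cage libraries. All Nr4a1-f/f values were higher, as for 9.37% of all genes, but the log2 fold change of 0.49 ± 0.17 (SE) did not pass (adjusted p = 0.188). Camk2a had 254.4, 246.5 and 233 CPM in PV Nr4a1-f/f libraries and 218.8, 222 and 245 CPM in PV home cage libraries, with overlap. Nrgn had 86.9, 88.8 and 142.6 CPM in PV Nr4a1-f/f libraries and 70.1, 108.9 and 181.5 CPM in PV home cage libraries, also with overlap. The median of the members was 0.10 on the log2 scale, with 6 of 9 positive.

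Of the 24 other glutamatergic genes, 16 had positive values and none passed (0), with a median log2 fold change of 0.30. Icam5, a dendritic adhesion molecule (1.00 ± 0.23, adjusted p = 0.125), Nptx1, a neuronal pentraxin (1.15 ± 0.31, adjusted p = 0.143), Wfs1 (0.93 ± 0.28, adjusted p = 0.163) and Itpka (1.00 ± 0.32, adjusted p = 0.172) had the lowest p. Camk2g was the relative with the lowest p (-0.43 ± 0.12 SE, adjusted p = 0.153). All 10 oligodendrocyte lineage markers were positive (median 1.06), with sums of 415.6 to 983.8 CPM in PV Nr4a1-f/f libraries and 221.1 to 399.8 CPM in PV home cage libraries. Astrocyte markers were positive for 9 of 10 (median 0.26), with sums of 704.7 to 954.7 CPM in PV Nr4a1-f/f libraries and 636.6 to 779.3 CPM in PV home cage libraries. Striatal projection neuron markers were positive for 6 of 6 (median 0.79), with sums of 67.2 to 113.9 CPM in PV Nr4a1-f/f libraries and 60.7 to 63.0 CPM in PV home cage libraries. Microglia markers were positive for 5 of 9 (median 0.49), vascular and mural markers for 7 of 10 (0.70) and thalamic relay neuron markers for 3 of 4 (0.56). GABAergic interneuron markers were positive for 6 of 15 (median -0.05), SST markers for 5 of 6 (0.37) and PV markers for 4 of 5 (0.18). None of these lists had a called gene (0), and their part in the members' values was not tested. Pvalb was 1053 and 1346 CPM in replicates 1 and 2 of PV Nr4a1-f/f but 156 CPM in replicate 3, against 154.8, 190.4 and 163.4 CPM in PV home cage libraries.

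SST saline and PV saline libraries of batch 2 give a comparison of the drivers within 1 table. Nrgn and Neurod2 were lower in SST libraries, and no member was higher by the test. Nrgn had 9.50, 13.5, 10.95 and 12.8 CPM in SST saline libraries, against 54.9 and 12.8 CPM in PV saline libraries. Only PV replicate 1 lay apart from the SST values. The log2 fold change was -1.55 ± 0.41 (SE, adjusted p = 0.00714), and without that library it was -0.14 (adjusted p = 0.716, the highest of 12 alternatives, the lowest being 2.54e-06). Neurod2 had 4.54, 7.39, 7.92 and 4.42 CPM in SST saline libraries, against 9.98 and 13.5 CPM in PV saline libraries. All SST values were lower, at a difference of -0.95 ± 0.32 on the log2 scale (SE, adjusted p = 0.0253). The Neurod2 call was lost without PV saline replicate 2 (adjusted p = 0.108), SST saline replicate 1 (0.0555) or SST saline replicate 4 (0.0624), and when only these groups were fitted (0.0543), within a range of 0.0121 to 0.108 over 12 alternatives.

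Called lower were thus 2 of 8 members, where 27.1% of 11784 genes were called lower and 53.1% in either direction, so the members' share was near that of all genes. Slc17a7 had 42.0, 61.2, 59.1 and 58.2 CPM in SST saline libraries and 66.2 and 76.8 CPM in PV saline libraries, without overlap (-0.37 ± 0.18 SE, adjusted p = 0.103). SST values lay below PV values without overlap for 2 of 8 members, Neurod2 and Slc17a7, and for 28.5% of all genes. Camk2a had 975.5, 1291, 1460 and 1178 CPM in SST saline libraries and 1236 and 1366 CPM in PV saline libraries, with overlap (-0.09 ± 0.16 SE, adjusted p = 0.663). Neurod6 differed the other way, at 8.29, 11.9, 15.2 and 11.4 CPM in SST saline libraries and 9.22 and 4.28 CPM in PV saline libraries (0.76 ± 0.33 SE, adjusted p = 0.0668). Without PV saline replicate 1, Neurod6 (log2 fold change 1.44, adjusted p = 0.00446, range 0.00446 to 0.344 over 12 alternatives) and Cux2 (0.82, adjusted p = 0.000666) were called higher. Tbr1 was called lower without PV saline replicate 2 (-1.05, adjusted p = 0.000515), so with n = 2 in the PV group the calls depended on which library was kept.

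Other glutamatergic genes differed in both directions, 9 of 22 being called higher and 3 lower in SST saline libraries. Over all 11784 genes tested, 3065 were called higher and 3189 lower (53.1% in either direction). Fibcd1 had 440, 595, 430 and 590 counts in SST saline libraries and 3 and 0 counts in the shallower PV saline libraries. These counts are not scaled for depth, and the scaled log2 fold change was 6.86 ± 0.53 (SE, adjusted p = 1.35e-06). Wfs1 was lower (-1.40 ± 0.18 SE, adjusted p = 7.06e-05), as was Lmo3 (-0.69 ± 0.13, adjusted p = 0.000948), while Dkk3 was higher (0.90 ± 0.14, adjusted p = 0.000217). Of 7 relatives of the members, Camk2d (1.00 ± 0.14, adjusted p = 0.000103) and the growth cone protein Gap43 (1.63 ± 0.26, adjusted p = 0.000303) were higher in SST libraries. Cux1, the paralog of Cux2, was lower (-1.03 ± 0.16 SE, adjusted p = 0.000217).

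After PTZ, none of the 9 members was called in PV libraries (0), where 0.0294% of 13598 genes were called. Fold changes were positive for 8 of 9 members with a median log2 value of 0.62, against -0.01 over all genes, and the groups overlapped for every member, while 7.56% of all genes were higher in PTZ libraries without overlap. Neurod6 had 28.6, 31.3, 31.1 and 26.7 CPM in PV PTZ libraries, against 36.3, 6.60 and 12.2 CPM in PV saline libraries (0.69 ± 0.46 SE, adjusted p = 0.483). Tbr1 had 94.2, 96.5, 51.6 and 47.2 CPM in PV PTZ libraries, against 83.1, 24.4 and 27.1 CPM in PV saline libraries (0.69 ± 0.44 SE, adjusted p = 0.466). Slc17a7 had 103.7, 187, 104.2 and 115.6 CPM in PV PTZ libraries, against 247.4, 56.1 and 56.4 CPM in PV saline libraries (0.09 ± 0.49 SE, adjusted p = 0.939). In each case PV saline replicate 1 lay with or above the PTZ libraries, and the other saline libraries lay below all of them. Emx1 had the largest value of the members (1.20 ± 0.56 SE, adjusted p = 0.369), at 1.74, 2.83, 1.21 and 1.71 CPM in PV PTZ libraries and 1.42, 0.521 and 0.547 CPM in PV saline libraries.

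With any 1 library other than PV saline replicate 1 left out, the median of the members lay between 0.246 and 0.667. The lowest came without PV saline replicate 3 (6 of 9 positive) and the highest without PV PTZ replicate 3. Without PV saline replicate 1, the median was 1.25 and 14 genes were called, again with 0 members among them. Neurod6 then had a log2 fold change of 1.64 (adjusted p = 0.0767, range 0.0767 to 0.864 over 12 alternatives), and Slc17a7 1.17 (adjusted p = 0.118, range 0.118 to 0.95). Tbr1 then had 1.49 (adjusted p = 0.105, range 0.105 to 0.846), Emx1 1.79 (0.22, range 0.22 to 0.732) and Slc17a6 1.29 (0.258, range 0.258 to 0.913). Neurod2 had 1.25 without it against 0.64 ± 0.41 (SE) with it, and Nrgn had 1.05 against 0.33 ± 0.46 (SE). Camk2a had 1759, 1980, 1758 and 1389 CPM in PV PTZ libraries and 2305, 1057 and 1024 CPM in PV saline libraries (0.24 ± 0.31 SE, adjusted p = 0.727, and 0.72 without that library). Cux2 was the exception in sign, at 78.1, 57.4, 75.3 and 63.1 CPM in PV PTZ libraries and 85.1, 76.7 and 82.7 CPM in PV saline libraries (-0.25 ± 0.18 SE, adjusted p = 0.506).

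Of 23 other glutamatergic genes 17 had positive values in PV PTZ libraries, with a median of 0.48 and none called (0), led by Bhlhe22 (1.18 ± 0.31, adjusted p = 0.268) and Arpp21 (1.18 ± 0.36, adjusted p = 0.297). Relatives of the members were positive for 7 of 9, with a median of 0.40, and Neurod1 (0.72 ± 0.34, adjusted p = 0.371) had the lowest p. GABAergic interneuron markers were negative for 14 of 15 (median -0.47), with a summed level of 2984 to 7579 CPM in PV PTZ libraries and 6701 to 10460 CPM in PV saline libraries. Astrocyte markers were positive for 9 of 10, with sums of 2092 to 3417 CPM in PV PTZ libraries and 1019 to 4988 CPM in PV saline libraries. Oligodendrocyte lineage, microglia and vascular markers were positive for 10 of 10 each, with medians of 0.73, 1.69 and 0.90. Without PV saline replicate 1, 21 of 24 other glutamatergic genes were positive (median 1.04), 7 of 9 relatives (0.50), 1 of 15 GABAergic interneuron markers (-0.57), and 10 of 10 markers each of astrocytes (1.28), the oligodendrocyte lineage (1.44), microglia (2.21) and vascular cells (1.78), with none called (0). Microglia sums were 56.8 to 380 CPM in PV PTZ libraries and 29.8 to 104.2 CPM in PV saline libraries. The part of these cells in the members' values was not tested.

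In SST libraries PTZ gave no called member either (0 of 8), where 0.144% of 11784 genes were called. Slc17a7 had 65.9, 62.3 and 84.4 CPM in SST PTZ libraries, against 42.0, 61.2, 59.1 and 58.2 CPM in SST saline libraries. All PTZ values were higher, by 0.36 ± 0.16 on the log2 scale (SE, adjusted p = 0.989). Neurod6 had 17.4, 16.1 and 18.3 CPM in SST PTZ libraries, against 8.29, 11.9, 15.2 and 11.4 CPM in SST saline libraries, again without overlap (0.57 ± 0.25 SE, adjusted p = 0.989). Such a separation upwards was found for 2 of 8 members and for 4.57% of all genes. The remaining members overlapped, and the median log2 fold change of the members was 0.17. Of 22 other glutamatergic genes 14 had positive values and none passed (0), and those with low p included Fezf2 (0.65 ± 0.24) and Arpp21 (0.40 ± 0.17, both SE, both adjusted p = 0.989). Astrocyte and oligodendrocyte lineage markers were positive for 5 of 10 each, and microglia markers for 4 of 8. Vascular and mural markers were positive for 5 of 6 (median 0.46) and thalamic relay neuron markers for 2 of 3 (0.16). Positive values were found for 6 of 15 GABAergic interneuron markers (median -0.07), 2 of 6 SST markers (-0.10), 0 of 5 PV markers (-0.24) and 0 of 5 striatal markers (-0.21). No gene of these lists was called (0), and their part in the members' values was not tested.

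The PTZ responses of SST and PV libraries were compared as a difference of log2 fold changes, across batches 2 and 1. None of the 8 members passed (0), with adjusted p of 0.862 to 0.971, nor did any without PV saline replicate 1 of batch 1 (0). Over all 11743 genes 0 were called by edgeR (0%), 602 had an unadjusted p under 0.05, and DESeq2 called 1. Driver and batch coincide in this comparison.

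After CFC, none of the 9 members was called in PV libraries (0) and 0% of 15150 genes were. By unadjusted p under 0.05 there were 2834 genes, and DESeq2 called 745. Nrgn came nearest, at 62.2, 64.2 and 82.3 CPM in PV CFC libraries, against 70.1, 108.9 and 181.5 CPM in PV home cage libraries. The groups overlapped, and the log2 fold change was -0.78 ± 0.30 (SE, adjusted p = 0.204). It passed without PV home cage replicate 1 (-1.05, adjusted p = 0.0289) and with no filter on low counts (adjusted p = 0.00177), in a range of 0.00177 to 0.566 over 12 alternatives. Neurod2 had 3.24, 4.99 and 5.95 CPM in PV CFC libraries and 4.48, 7.43 and 12.3 CPM in PV home cage libraries (-0.76 ± 0.39 SE, adjusted p = 0.317). Camk2a (0.18 ± 0.12) and Slc17a7 (0.16 ± 0.17, both SE) had small positive values. The median of the members was -0.33, with 6 of 9 negative. With 1 library of these groups left out, it ran from -0.647 (without PV CFC replicate 3) to -0.127 (without PV home cage replicate 3). Among other glutamatergic genes 15 of 24 were positive, led by Nptx1 (0.81 ± 0.31, adjusted p = 0.204) and Wfs1 (0.70 ± 0.28, adjusted p = 0.224), and Camk2d had the lowest p of the relatives (0.57 ± 0.18, adjusted p = 0.186). Astrocyte markers were positive for 8 of 10 (median 0.33) and oligodendrocyte lineage markers for 9 of 10 (median 0.36). Microglia markers were positive for 4 of 9 (median -0.09) and vascular and mural markers for 3 of 10 (median -0.20). No gene of these lists was called (0), and their part in the members' values was not tested. Both comparisons in batch 3 use the same PV home cage libraries.

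After CFC in SST libraries none of the 9 members was called (0), where 0.0411% of 14614 genes were. Camk2a had 364, 378.1 and 463.3 CPM in SST CFC libraries, against 425, 523.5 and 538.4 CPM in SST home cage libraries (-0.30 ± 0.12 SE, adjusted p = 0.849). Slc17a7 had 92.0, 80.8 and 126.1 CPM in SST CFC libraries, against 110, 150.4 and 144.5 CPM in SST home cage libraries (-0.44 ± 0.18 SE, adjusted p = 0.881). In both, 1 CFC library lay within the home cage range. Neurod2 was lower in every SST CFC library (5.40, 3.50 and 6.07 CPM) than in SST home cage libraries (6.78, 8.38 and 6.58 CPM), the only such member of 9, against 5.8% of all genes, and did not pass (-0.54 ± 0.36 SE, adjusted p = 0.995). Negative values were found for 7 of 9 members, with a median of -0.22, and for 15 of 24 other glutamatergic genes, of which Itpka (-0.46 ± 0.21, adjusted p = 0.907) had the lowest p.

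Beside these values, all 10 vascular and mural markers were negative (median -2.99, 1 called), with sums of 38.5 to 61.8 CPM in SST CFC libraries and 111.9 to 544.2 CPM in SST home cage libraries. Astrocyte markers were negative for 9 of 10 (sums of 383.7 to 490.6 CPM in SST CFC libraries and 479.7 to 674.8 CPM in SST home cage libraries), and oligodendrocyte lineage markers for 10 of 10. Their part in the members' values was not tested. The CFC responses of SST and PV libraries, compared across batches 4 and 3, gave no called member of 9 (0) and no called gene of 16081 (0%), with 2452 genes at an unadjusted p under 0.05 and 327 called by DESeq2. The differences were -0.53 ± 0.26 for Slc17a7 (adjusted p = 0.341), -0.42 ± 0.17 for Camk2a (adjusted p = 0.264) and 0.79 ± 0.38 for Nrgn (adjusted p = 0.331, all SE).

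**Figure D3:**
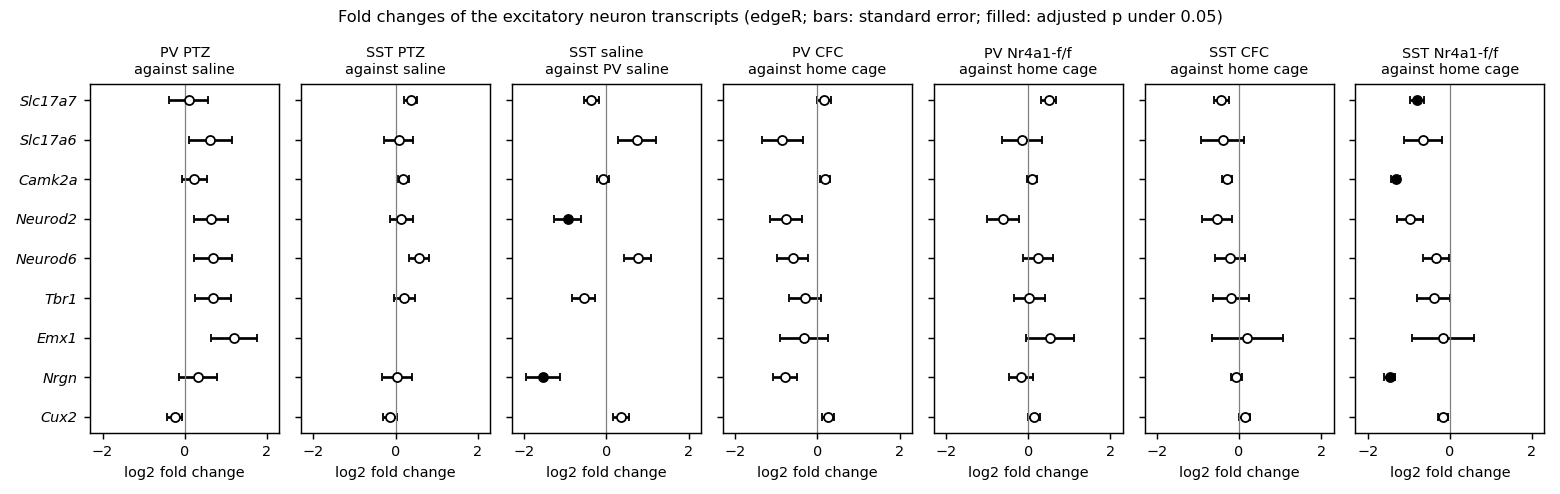
Log2 fold change with its standard error for each member in the 7 comparisons, from edgeR, with filled points for an adjusted p under 0.05. Filled points are Camk2a, Nrgn and Slc17a7 in SST Nr4a1-f/f against home cage and Nrgn and Neurod2 in SST saline against PV saline, all below 0.

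Across the 34 libraries, after each batch mean was taken from log2(CPM + 1), members varied together to different degrees. Of 28 pairs among 8 members 22 had a positive Pearson r, with a median of 0.415. The closest pair was Slc17a7 and Camk2a (r = 0.853, Spearman rho = 0.726), followed by Neurod6 and Tbr1 (0.694) and Camk2a and Tbr1 (0.685). For Cux2, r with the other members lay between -0.493 (with Neurod2) and 0.055, and it lay between -0.096 and 0.055 for 4 of its 7 pairs. Without PV saline replicate 1 of batch 1 (n = 33), 22 of 28 pairs were positive, the median was 0.372, and r of Slc17a7 with Camk2a was 0.813. Pairs of Cux2 then had r between -0.554 and 0.006. These points share tables, library depth and scaling, so the values describe these libraries only.

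By the mean over 8 members, PV saline replicate 1 of batch 1 lay 0.643 above its batch mean on this scale, with 8 of 8 members above, and PV PTZ replicate 2 lay 0.569 above, with 7 of 8. PV saline replicates 3 and 4 lay at -0.981 and -0.538, with 1 member above each. Among 8000 genes searched, those whose pattern was most like the mean of the members were Slc1a2 (r = 0.836), Hepacam (0.798), Rasgef1a (0.795), Enc1 (0.788), Ptk2b (0.783), Psd (0.781), Ngef (0.778), Auts2 (0.759), Itpka (0.759) and Ppp2r5a (0.757), each over 34 libraries. Without PV saline replicate 1 of batch 1 the same 10 genes led, with r of 0.747 to 0.809. Slc1a2 is on the astrocyte marker list. For single members the most like gene was Efnb3 for Slc17a6 (0.68), Klf13 for Neurod2 (0.803), Ptk2b for Neurod6 (0.83), Itpka for Tbr1 (0.795), Apoe for Nrgn (0.795) and Klhl11 for Cux2 (0.839).

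**Figure D4:**
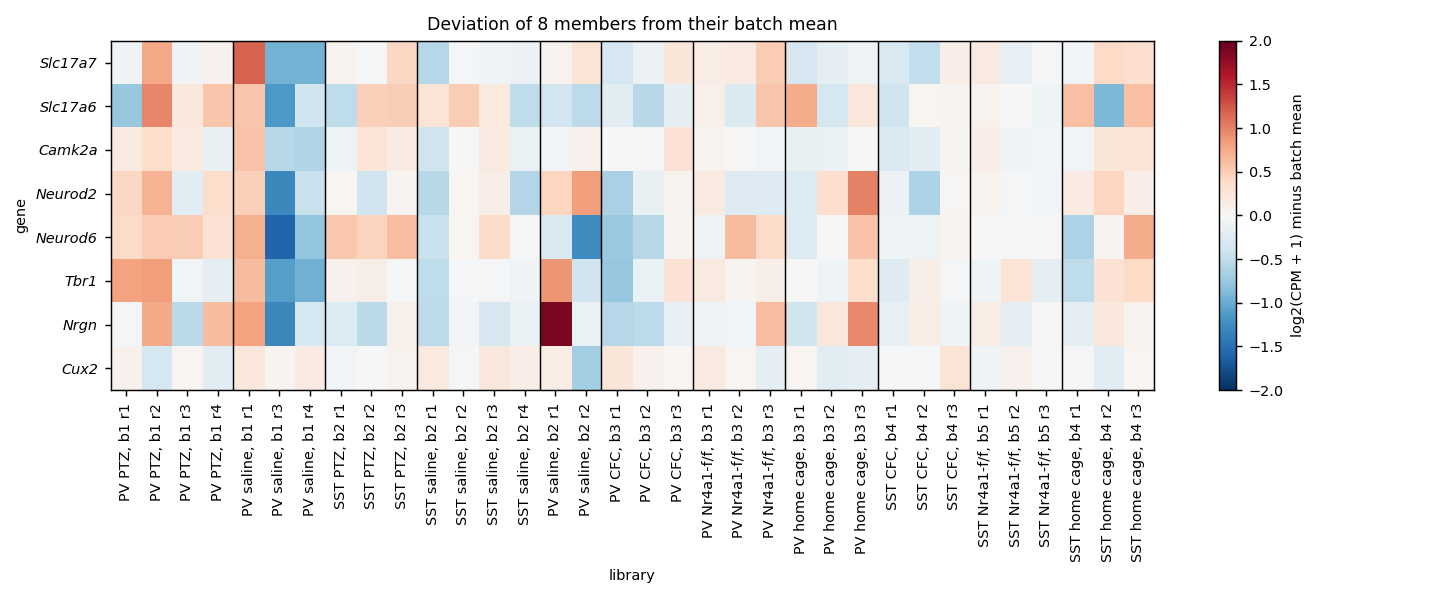
Deviation of each of 8 members from its batch mean, in log2(CPM + 1), for the 34 libraries. PV saline replicate 1 of batch 1 is above its batch mean in 8 of 8 members, and PV saline replicates 3 and 4 are below in all but 1.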

How the data were processed

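Batch names, groups and replicate numbers came from the sample titles. Values of batch 1 are expected counts by gene symbol as deposited by the authors (9.5% of values were not whole at a tolerance of 0.001), which were rounded. For batches 2 to 5 they deposited whole-number read counts per gene without normalization, in tables of 11808 genes (batch 2) or 53465 genes. The submitters' processing notes list HTSeq 0.11.0, STAR 2.5.2a, cutadapt 1.18 and DESeq2, and the builds mm10 and GRCm39, with no role or order. Strand settings are not given in the sources used here. No value column was left unused (0).

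Each comparison was fitted on the whole table with edgeR 4.0.16 in R 4.3.3 (TMM scaling, filterByExpr, robust quasi-likelihood F test, two-sided, Benjamini-Hochberg at 0.05), and all libraries of a table shared the spread. Batches 4 and 5 were fitted together for the SST Nr4a1-f/f comparison. The interactions used the genes common to both tables. SE is the absolute log2 fold change over the square root of F. CPM are TMM-scaled within a table, and levels across tables are a description, since tables were scaled separately. Exon lengths came from GENCODE vM21 and promoters from RefSeq (GRCm38.p6). Alternatives used DESeq2 1.42.0, limma 3.58.1 (voom), other scaling, no filter, a replicate block, only the groups compared, and left-out libraries. The edgeR fit was tested on simulated data.

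Members and lists were chosen with earlier results of these data known. Named in each comparison are the members, and up to 4 genes each from the relatives and the other glutamatergic genes, called genes first and otherwise those with the lowest p. Of the genes this rule names, 1 is not reported here. Likeness was measured over genes with a mean of at least 5 CPM in each table, and the 10 most like were named. Whether replicates are separate animals is not labelled, so a p-value here reflects library-to-library spread, which may be technical. No replicate pair was identical (0 of 37), and chi-square over degrees of freedom was at least 5.89. Depth sets the precision of scarce members, and counts carry no molecular identifiers.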

Additional observations from a re-analysis of the deposited data

Results flagged for a closer look

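Groups of 4 libraries allow a check for a library far from the rest of its group, and 3 of 17 sets of values were marked, where chance marks about 1 in 20. Slc17a7 stood at 187 CPM in PV PTZ replicate 2, above 103.7, 104.2 and 115.6 CPM in the other PV PTZ libraries, with a gap of 0.857 of the group's range. In SST saline replicate 1, Slc17a7 was 42.0 CPM, below 58.2 to 61.2 CPM in the other SST saline libraries (gap 0.848 of the range). In the same library Tbr1 was 15.8 CPM, below 21.9 to 22.6 CPM in the others (gap 0.906 of the range).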

How the results depend on the processing

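Camk2a (-1.25 to -1.38) and Nrgn (-1.38 to -1.54) were called in all 12 alternatives of SST Nr4a1-f/f against home cage. DESeq2 gave 215 (PV PTZ), 38 (SST PTZ), 745 (PV CFC), 669 (PV Nr4a1-f/f), 102 (SST CFC), 2126 (SST Nr4a1-f/f), 1 (PTZ response) and 327 (CFC response), against 4, 17, 0, 21, 6, 1252, 0 and 0 with edgeR. With no filter on low counts, 1032 genes and 1 member were called in PV CFC, 1072 genes in PV Nr4a1-f/f, 11 in SST CFC and 708 in the CFC response. Voom gave 27 in SST PTZ and 1 in PV CFC, and fitting only the 2 groups compared gave 38 in SST PTZ, 2 in PV CFC and 10 in PV Nr4a1-f/f. In SST against PV saline, only the 2 groups gave 1 called member (Nrgn, while Neurod2 at -0.943 had an adjusted p of 0.0543), and DESeq2 gave 3 with Neurod6 at 0.770 (adjusted p = 0.0371, range 0.00446 to 0.344). Single members changed sign under voom for Emx1 in SST Nr4a1-f/f (0.104) and Slc17a7 in the PTZ response (-0.122). DESeq2 size factors within edgeR moved no count of calls by over 1.5 times and turned no member's direction. CPM on plain library totals turned the members' summed log2 ratio in PV CFC to 0.06 from -0.023, both within the spread. The causes were not tested.

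Replicate numbers did not pair the libraries: 6 of 22 same-number pairs had a correlation over 0.1 (-0.237 to 0.241). With the replicate block, 2 genes were called in PV PTZ, 8 in SST PTZ, 2 in PV CFC, 2 in SST CFC and 1 in the PTZ response, Slc17a6 in SST PTZ was -0.187, and 0 members were called in SST against PV saline (Nrgn -1.472, adjusted p = 0.0515; Neurod2 -0.944, adjusted p = 0.0722).

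Leaving out 1 library at a time (a lone PV saline library of batch 2 was then assumed to vary like the other groups) gave 0 to 14 called genes in PV PTZ, 0 to 1481 genes and 0 to 1 members in PV CFC, 7 to 1224 genes in PV Nr4a1-f/f, 1 to 37 in SST CFC, 412 to 1292 in SST Nr4a1-f/f, 0 to 1 in the PTZ response, 0 to 881 in the CFC response, and 1 to 3 members in SST against PV saline. Fold changes that crossed 0 were Slc17a7 -0.256 to 1.174 and Nrgn -0.055 to 1.053 (PV PTZ); Slc17a6 -0.130 to 0.369 and Nrgn -0.165 to 0.193 (SST PTZ); Camk2a -0.180 to 0.010 and Tbr1 -1.053 to 0.265 (SST against PV); Slc17a7 -0.018 to 0.280 and Emx1 -0.635 to 0.118 (PV CFC); Slc17a6 -0.492 to 0.293, Tbr1 -0.074 to 0.193, Emx1 -0.217 to 0.969 and Nrgn -0.445 to 0.239 (PV Nr4a1-f/f). They were also Neurod6 -0.518 to 0.227, Tbr1 -0.470 to 0.015, Emx1 -0.265 to 0.696 and Nrgn -0.171 to 0.031 (SST CFC), and Neurod6 -0.614 to 0.102 and Emx1 -0.636 to 0.329 (SST Nr4a1-f/f). In the PTZ response they were Slc17a7 -0.870 to 0.590, Camk2a -0.581 to 0.141, Neurod6 -1.127 to 0.248 and Nrgn -1.067 to 0.055, and in the CFC response Neurod2 -0.136 to 0.594 and Tbr1 -0.125 to 0.515.

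The log2 ratio of the members' summed CPM to that of Gad1, Gad2 and Slc32a1 was -0.071 in SST PTZ, -0.659 in SST against PV saline, -0.489 in PV CFC and -0.203 in PV Nr4a1-f/f, where the sum alone gave 0.191, -0.117, -0.023 and 0.102. Of alternatives chosen after seeing the data, the sum without Camk2a gave -0.737 in SST Nr4a1-f/f (-1.02 with it), and without PV Nr4a1-f/f replicates 1 and 2 (n = 1, assumed to vary like the other groups) Slc17a6 was 0.362, Nrgn 0.261 and Cux2 -0.074. Emx1 rested on 5 to 146 counts.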

Other observations

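Genes outside the members also changed level between tables. Slc1a2, the glutamate transporter of astrocytes, was 757 to 4162 CPM in batches 1 and 2 and 36.9 to 94.3 CPM in batches 3 to 5. The ratio of Gad1 to Gad2, both of which make GABA, was 0.20 to 0.29 in SST libraries of batch 2 and 4.78 to 9.24 in PV libraries of batch 3. Libraries of both drivers stood on each side of the Slc1a2 break, where batch and treatment cannot be told apart. Between the SST libraries of batch 2 and the PV libraries of batch 3, driver, batch and treatment cannot be told apart for the Gad1 to Gad2 ratio. Within batch 2, mean Gad1 and Gad2 were 923.1 and 3725 CPM in SST saline libraries. They were 1662 and 1195 CPM in PV saline libraries, at the same batch and treatment.

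The summed level of 6 markers of striatal projection neurons was 278.5 to 376.8 CPM in SST Nr4a1-f/f libraries, 413.9 to 470.1 CPM in SST CFC libraries and 380.9 to 560.8 CPM in SST home cage libraries, against 60.7 to 113.9 CPM in PV libraries of batch 3. It was 232.5 to 306.3 CPM in PV PTZ libraries and 107.3 to 323.2 CPM in PV saline libraries of batch 1. Batch 2 lists 5 of these markers, without Adora2a. Their sum there was 66.6 to 86.4 CPM in SST saline, 56.7 to 73.6 CPM in SST PTZ and 58.2 to 59.0 CPM in PV saline libraries. The 5 markers of thalamic relay neurons were Tcf7l2, Lef1, Gbx2, Prkcd and Calb2, whose levels are given here only as a sum. It was 145.2 to 174.8 CPM in SST Nr4a1-f/f libraries, 176.9 to 259.2 CPM in SST CFC libraries and 192.2 to 238.9 CPM in SST home cage libraries. This sum was 3.00 to 13.5 CPM in PV libraries of batch 3, and at most 27.5 CPM in libraries of batch 1. Batch 2 lists 3 of these markers, without Lef1 and Gbx2, and their sum there was at most 21.5 CPM.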
